A study of Rattus norvegicus with 6 samples.

Results

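The 5 genes described here are the measured members of a set of 10 genes that encode NF-kappaB subunits and the proteins that hold NF-kappaB in check. A member was found by matching the RefSeq accession of a non-control probe, without its version, to the symbol in a table of current rat RefSeq genes. Nfkb2, Nfkbia, Nfkbie, Bcl3 and Tnip1 matched, with 1 probe each, out of 24684 probes and 13903 named genes on the array. Nfkb1, Rel, Relb, Nfkbiz and Tnfaip3 had no match by this rule and were not analysed here. The table also lists Slc35b2, the neighbouring gene, as a synonym of Nfkbie, so the name of the Nfkbie probe rests on its accession alone.

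RNA of rat pancreas was measured on 1-colour Agilent arrays in 2 groups of 3 scans. The acute pancreatitis (AP) group consisted of male rats, 6 weeks old, that received 1 mL/kg of 4% sodium taurocholate, a bile salt, backwards into the pancreatic duct, and whose tissue was taken 9 h later. The control group consisted of male rats of the same age, and the labels do not say whether these had a sham operation. The labels used here name neither a strain nor a genetic change in either group.

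Scan 3 of each group was a second scan of the array of scan 2: spot-level deviations around each probe's mean correlated with r = 0.988 for the AP pair and r = 0.991 for the control pair, against 0.195 to 0.721 for the other pairs (across 2245 spots, which are not independent). Tests therefore used 2 arrays per group, with the scans of an array averaged. P values, SE and intervals of the fit rest on the spread between these arrays, pooled with a prior variance drawn from all probes tested. The AP scans were dimmer, with a 75th percentile of the signal of 70.1 to 77.7 against 140 to 147 on the control scans, and 10905 to 11367 against 13039 to 15388 probes well above background. Levels are log2 signals relative to that percentile, so a change is read against the overall brightness of the array. Without this scaling the median change over all 8732 genes moved by -0.96. Several inflammatory genes that NF-kappaB drives had lower levels on the arrays that the labels call AP. Every direction below follows the deposited labels, which no measurement here checks independently: if the labels of the groups were exchanged, every direction would turn.

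NF-kappaB is a family of dimeric transcription factors that drive inflammatory and survival genes. In a resting cell, IkB proteins bind the dimers and keep them in the cytoplasm. When receptors for cytokines or bacterial products activate the IKK kinase complex, IkB is phosphorylated and degraded and the dimers enter the nucleus. Among the genes they switch on are those of their own inhibitors, which gives the pathway its negative feedback. In pancreatitis, NF-kappaB is known to be activated early in acinar cells, the enzyme-secreting cells of the gland.

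Of the 5 measured members, the inhibitor gene Nfkbia and the IkB family gene Bcl3 fell in AP, by about the same amount. Nfkbia was 2.02-fold lower and Bcl3 2.22-fold lower. Nfkb2, Nfkbie and Tnip1 did not pass the threshold of an adjusted p below 0.05. None of the 5 rose in the limma test, neither after adjustment nor at an unadjusted p below 0.05, where 2 were lower and 0 higher. Over all 13220 probes tested, 28.2% were called lower, 26.9% higher and 55.1% either way, so 2 of 5 lower is not far from the share over the array. In bulk tissue, fewer cells of a type and less RNA per cell cannot be told apart.

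Promoter sequences of Nfkbia and Bcl3, the members that fell together, and of Tnip1, which did not pass, are printed to show where the letters of an NF-kappaB site stand in each. They run 5′ to 3′ from 250 bases before to 50 bases after the RefSeq start site (build GRCr8, gene strand), and capitals mark matches to the kappaB consensus searched on both strands. The windows are chr6:78597023-78597322 (minus strand) for Nfkbia, chr1:88613506-88613805 (minus strand) for Bcl3 and chr10:39584912-39585211 (minus strand) for Tnip1.
Nfkbia: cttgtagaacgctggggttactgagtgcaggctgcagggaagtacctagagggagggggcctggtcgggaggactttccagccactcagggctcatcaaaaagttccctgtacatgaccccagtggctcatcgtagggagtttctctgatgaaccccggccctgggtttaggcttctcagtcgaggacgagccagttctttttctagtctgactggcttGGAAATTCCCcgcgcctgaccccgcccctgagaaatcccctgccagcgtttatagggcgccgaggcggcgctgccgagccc
Bcl3: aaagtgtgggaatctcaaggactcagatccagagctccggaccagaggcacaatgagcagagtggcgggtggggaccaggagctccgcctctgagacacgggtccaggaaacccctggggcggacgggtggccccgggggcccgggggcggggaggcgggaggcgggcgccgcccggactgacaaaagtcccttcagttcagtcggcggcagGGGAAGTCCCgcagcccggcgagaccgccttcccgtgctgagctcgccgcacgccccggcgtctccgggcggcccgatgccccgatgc
Tnip1: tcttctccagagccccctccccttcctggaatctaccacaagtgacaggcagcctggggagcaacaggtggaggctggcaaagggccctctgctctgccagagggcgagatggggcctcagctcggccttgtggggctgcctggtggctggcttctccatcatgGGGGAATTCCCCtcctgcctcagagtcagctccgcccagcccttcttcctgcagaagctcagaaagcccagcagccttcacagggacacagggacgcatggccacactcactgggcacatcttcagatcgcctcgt

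Nfkbia held the match GGAAATTCCC starting 31 bases before the start site, and Bcl3 held GGGAAGTCCC starting 38 bases before it. Tnip1 held 3 overlapping matches within 1 run of letters, around GGGAATTCCC starting 85 bases before the start site. The windows of Nfkb2 and Nfkbie held 1 match each, GGGACTTTCC starting 20 bases and GGGGGATTCC starting 164 bases before the start site. All 5 measured members thus had the motif within 300 bases, against 7.51% of 33469 promoters of the same length. The set was chosen for its part in NF-kappaB signalling and its feedback, so this is no test of enrichment. The members that fell and those that did not pass had it alike, and a match is a description of letters, not of binding.

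Nfkbia encodes IkB-alpha, the inhibitor that is degraded on stimulation and made again within the feedback loop. Its signal was 427, 334 and 357 intensity units on AP scans 1, 2 and 3, against 1541, 1455 and 1483 on control scans 1, 2 and 3. After scaling these were log2 levels of 2.46, 2.25 and 2.27 on the AP scans and 3.39, 3.37 and 3.34 on the control scans. Both AP arrays lay below both control arrays, and the AP arrays were spread more widely than the control arrays. The share of all probes whose groups separate in this way was not counted. The array means were 2.36 ± 0.14 in AP and 3.37 ± 0.02 in control (SD, n = 2 arrays each). The change was -1.01 ± 0.12 (log2, SE; 95% interval -1.34 to -0.68; adjusted p = 0.00565), and 19.6% of the 8732 genes tested had a lower one. The change kept its direction and its call in all 18 other settings, with values of -1.97 to -0.82.

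Bcl3 encodes a nuclear member of the IkB family that binds p50 and p52 dimers at DNA and can activate or repress their targets. Its signal was 335, 299.7 and 313 units on AP scans 1, 2 and 3, against 1431, 1315 and 1355 on the control scans. The scaled levels were 2.11, 2.09 and 2.08 on the AP scans and 3.28, 3.23 and 3.22 on the control scans. Both AP arrays lay below both control arrays, a separation not counted over all probes, and the scans within each group lay close together. The array means were 2.10 ± 0.01 in AP and 3.25 ± 0.04 in control (SD, n = 2 arrays each). The change was -1.15 ± 0.09 (log2, SE; 95% interval -1.42 to -0.89; adjusted p = 0.00282), and 16.7% of the genes tested had a lower one. It too kept direction and call in all 18 other settings, with values of -2.11 to -0.91.

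**Figure D1:**
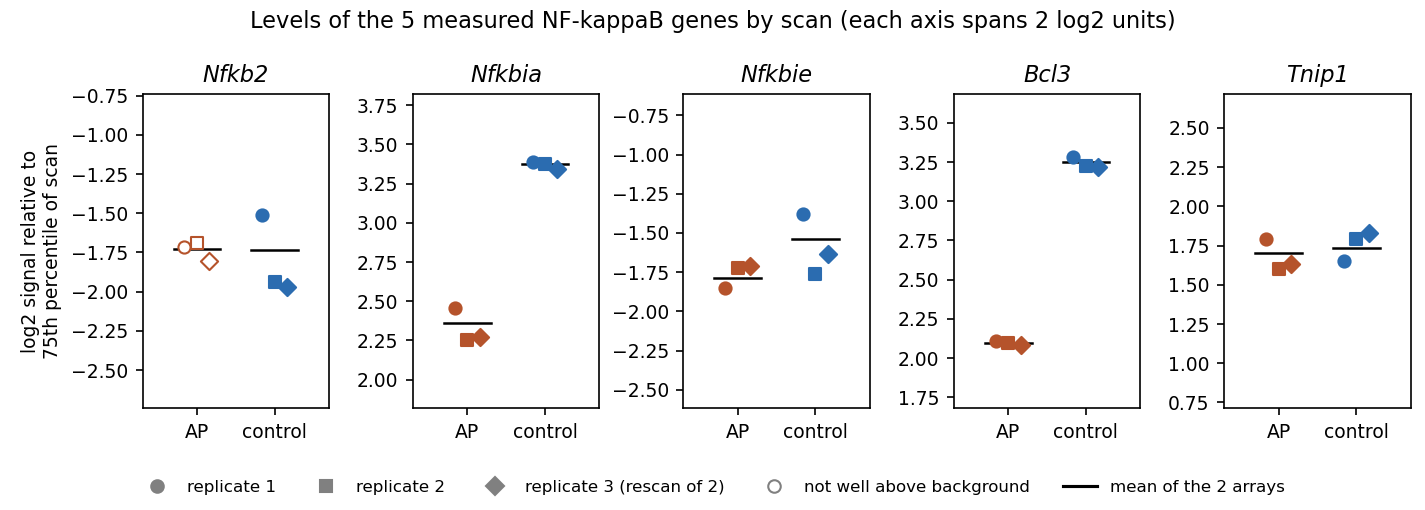
Log2 signal relative to the 75th percentile of the scan for each measured gene, with AP at the left and control at the right of each panel; points are scans, open points are not well above background, and lines are means of the 2 arrays of a group. The AP scans lie below the control scans for Nfkbia and Bcl3, while the groups overlap for Nfkb2, Nfkbie and Tnip1. Such separation was not counted over all probes.

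Tnip1 encodes a ubiquitin-binding partner of A20, the enzyme that edits ubiquitin chains to shut off signals to IKK. Its signal was 269, 213 and 229.5 units on AP scans 1, 2 and 3, against 464, 486 and 518 on the control scans. The scaled levels were 1.79, 1.60 and 1.64 on the AP scans and 1.65, 1.79 and 1.83 on the control scans. The scaled levels of the groups overlapped, and the arrays of each group differed by more than the group means did. The change was -0.03 ± 0.12 (log2, SE; 95% interval -0.38 to 0.33; adjusted p = 0.872). That interval still allows a fall or a rise of modest size. Without scaling Tnip1 was called lower (-0.98, adjusted p = 0.00662), by about as much as the median of all genes moved.

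Nfkbie encodes IkB-epsilon, another cytoplasmic inhibitor whose gene is itself a target of NF-kappaB. It was dim: 21.5, 21.2 and 22.6 units on AP scans 1, 2 and 3, against 56.6, 41.4 and 47.0 on the control scans, though marked well above background on every scan. The scaled levels were -1.85, -1.72 and -1.71 on the AP scans and -1.38, -1.76 and -1.64 on the control scans, with overlap. The change was -0.25 ± 0.16 (log2, SE; 95% interval -0.69 to 0.20; adjusted p = 0.257). A few alternatives called it lower: no scaling (-1.20, adjusted p = 0.00484), quantile normalization (-0.39, 0.0431) and the deposited normalized values (-0.40, 0.0384), and its adjusted p over all settings ranged from 0.00484 to 0.989.

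Nfkb2 encodes p100, which acts as an inhibitor until it is cut to the DNA-binding subunit p52, and it was the measured subunit gene among the members. Its signal was 23.7, 21.7 and 21.2 units on AP scans 1, 2 and 3, where it was not well above background, against 51.7, 36.7 and 37.2 on the control scans, where it was. The scaled levels were -1.71, -1.69 and -1.80 on the AP scans and -1.51, -1.94 and -1.97 on the control scans. The AP scans lay between the control arrays. Because the AP values only bound the level, no fold is given; the fitted change was 0.0023 ± 0.19 (log2, SE; 95% interval -0.53 to 0.54; adjusted p = 0.992). Without scaling it had the opposite sign and was called lower (-0.95, adjusted p = 0.0184).

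The members can also be set against each other on the same array, where scaling cancels. The log2 ratio of Nfkbia to Tnip1, centred on its mean over the arrays, was -0.48 and -0.50 on AP arrays 1 and 2 and 0.58 and 0.40 on control arrays 1 and 2, a difference of -0.99. The ratio of Bcl3 to Tnip1 was lower in AP by the same measure, with a difference of -1.13. The ratio of Nfkbia to Bcl3 moved little, by 0.14, with values of 0.16 and -0.018 on the AP arrays and -0.085 and -0.054 on the control arrays. The ratio of Nfkbia to Rela, the gene of the main activating subunit p65, had a difference of -0.77, with -0.43 and -0.33 on the AP arrays and 0.45 and 0.32 on the control arrays. Every ratio computed of Nfkbia or Bcl3 to another measured member or to Rela had p = 0.333 in an exact two-sided permutation test, raw and after Benjamini and Hochberg adjustment, the smallest value that 2 against 2 arrays allow. With 2 against 2 arrays this test could not pass the threshold, so unequal change between genes is described here and not shown. Nor do such ratios show that any gene stayed constant.

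**Figure D2:**
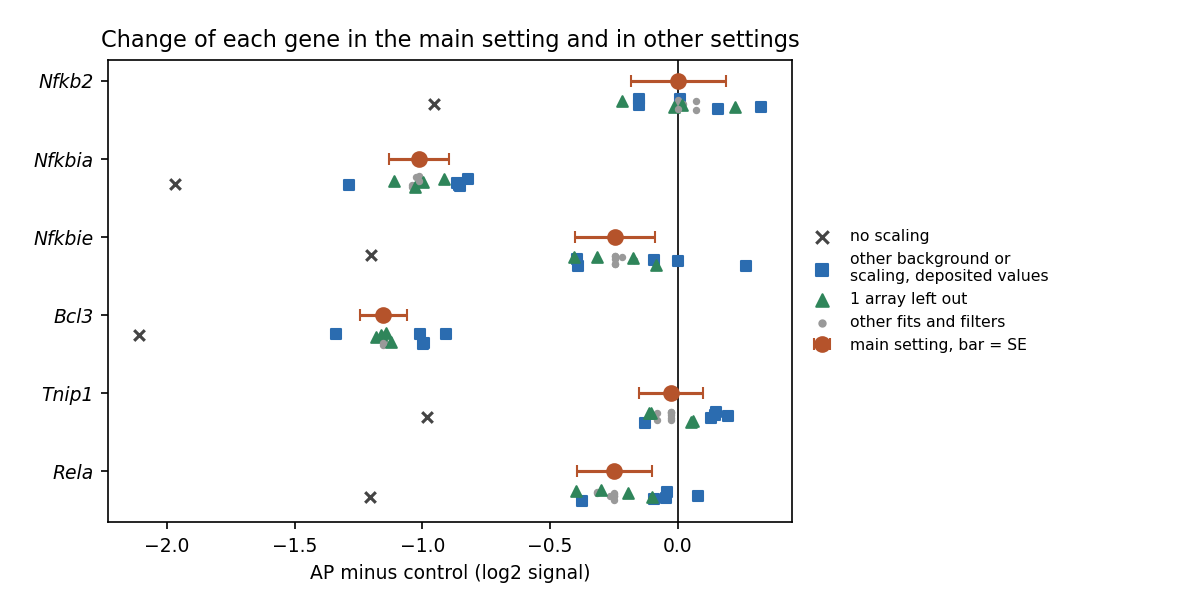
AP minus control in log2 signal for the 5 measured members and Rela; large points with bars are the values reported with their SE, and small marks below them are the values under other settings. Nfkbia and Bcl3 lie below 0 in every setting, with -1.97 and -2.11 without scaling, and Nfkb2, Nfkbie, Tnip1 and Rela lie lowest without scaling.

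Among other genes of subunits and IkB-like proteins, 5 of 9 were tested, and Nkiras2 alone passed, lower by 2.57-fold (-1.36 ± 0.13, log2, SE, adjusted p = 0.00384). Nkiras2 encodes a small Ras-like protein that binds IkB proteins. Rela had levels of 2.39 ± 0.21 in AP and 2.64 ± 0.07 in control (SD, n = 2 arrays each) and a change of -0.25 ± 0.15 (SE, adjusted p = 0.229). A call of lower for Rela appeared when scaling was left out (-1.20, adjusted p = 0.00611) and with the 6 scans as separate replicates (-0.32, 0.0326). The latter fit counts both scans of an array as independent, which they are not, so its p value overstates the evidence.

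Of the kinases of the pathway, 7 of 11 were tested; 1 was lower, 2 were higher and 4 did not pass. Map3k14, which encodes NIK, the kinase that starts the processing of p100, was 1.93-fold higher (0.95 ± 0.10, log2, SE, adjusted p = 0.00447). Ikbke, an IKK-related kinase gene, was 1.53-fold higher (0.62 ± 0.17, adjusted p = 0.0453), and Map3k8, the gene of the kinase Tpl2, was 2.05-fold lower (-1.04 ± 0.21, adjusted p = 0.0218). The catalytic subunit genes Chuk and Ikbkb had changes of 0.35 and -0.15 that did not pass; without scaling both were called lower (-0.61 and -1.10). Without scaling Map3k14 stood at -0.012 and Ikbke at -0.34, neither called. Under normexp with the 75th percentile Map3k14, Map3k8 and Ikbke were not called (adjusted p = 0.276, 0.414 and 0.246). Ikbke kept its call in only 6 of 18 other settings, and lost it also under quantile normalization (adjusted p = 0.103) and with the deposited normalized values (0.107). Ikbke lost its call without control array 1, control array 2 or AP array 1 (adjusted p = 0.0909 to 0.169), and Map3k8 without either control array (0.0895 to 0.106).

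Of the receptors that feed the pathway, 9 of 14 were tested; 5 were lower, 2 were higher and 2 did not pass (median change -1.90, or -1.25 with genes at background in AP taken at their bound, against -0.03 over all genes tested). Ltbr, the lymphotoxin beta receptor gene, was 8.06-fold lower (-3.01 ± 0.14, log2, SE, adjusted p = 0.00108), and Cd14, a coreceptor for bacterial lipopolysaccharide, was 7.77-fold lower (-2.96 ± 0.23, adjusted p = 0.00259). Tnfrsf1a, the gene of TNF receptor 1, was 3.73-fold lower. Tlr4 and Tlr2, which encode receptors for bacterial products, were not well above background in AP, so only nominal bounds are given. These were 4.81-fold lower for Tlr4 and 2.37-fold lower for Tlr2. Both calls ended under normexp with the 75th percentile, with -0.45 for Tlr4 (adjusted p = 0.23) and -0.00013 for Tlr2 (0.9997). Under normexp with quantile normalization both were still called lower. Both bounds were computed only with the background subtraction of the scanner software, and their size depends on it. A bound compares the brighter group with the higher of the probe's own signal and the lowest signal well above background on the scan. For Tlr4 the probe's own signal was the higher, so its bound equals the fitted fold. No bound is a strict minimum. Nfkb2 was not well above background in AP at a level of -1.73, while the lowest signal well above background on the AP scans was -2.52 to -2.47. Cd40, a receptor of B cells and other antigen-presenting cells, was 3.37-fold higher (1.75 ± 0.34, adjusted p = 0.0190), though well above background on only 1 of 3 control scans, with 0.80 without scaling (0.115). Tlr3 was 1.57-fold higher, though well above background on only 1 of 3 AP scans, with -0.31 without scaling (adjusted p = 0.138). Cd40 lost its call without either AP array (adjusted p = 0.0793 to 0.0802), and Tlr3 without control array 2 or either AP array (0.0609 to 0.0688). Tlr3 kept its call in 8 of 17 other settings, and lost it also under quantile normalization (0.0561) and with the deposited normalized values (0.0568).

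Of the adaptors and ubiquitin ligases, 13 of 23 were tested; 3 were lower, 4 were higher and 6 did not pass. Myd88, the adaptor of Toll-like and interleukin 1 receptors, was 2.37-fold lower (-1.24 ± 0.10, log2, SE, adjusted p = 0.00268), and Irak3, which encodes an inhibitory kinase-like protein, 1.80-fold lower. Card9, not well above background in AP, was lower with a nominal bound of 1.96-fold. Rbck1 and Sharpin, subunits of the ligase that makes linear ubiquitin chains, were 2.81-fold and 1.48-fold higher, and the kinases Irak4 and Irak1 2.34-fold and 1.35-fold higher. Without scaling Irak1 was called lower (-0.52, adjusted p = 0.0224), Sharpin stood at -0.39, and Rbck1 and Irak4 stood at 0.53 and 0.27, none of these 3 called. Leaving out arrays ended the call of Irak1 (any of the 4 arrays, adjusted p = 0.0705 to 0.169), Irak4 (control array 1 or either AP array, 0.0513 to 0.0979), Rbck1 (either AP array, 0.0506 to 0.0539) and Sharpin (either control array or AP array 1, 0.0738 to 0.0916). Irak1 kept its call in 7 and Irak4 in 10 of 18 other settings; under quantile normalization their adjusted p was 0.0617 and 0.103, and with the deposited normalized values 0.0558 and 0.101.

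Of other genes that act in ubiquitin-based feedback, 6 of 12 were tested; 3 were lower and 2 were higher. Zc3h12a, which encodes an RNase that degrades inflammatory messenger RNAs, was 3.14-fold lower (-1.65 ± 0.20, log2, SE, adjusted p = 0.00666), and Tax1bp1, an A20 adaptor gene, 2.62-fold lower (-1.39 ± 0.09, adjusted p = 0.00205). Optn, the gene of the ubiquitin-binding protein optineurin, was lower with a nominal bound of 1.84-fold, and lost its call without either control array (adjusted p = 0.0623 to 0.0768). Usp18 was 1.82-fold higher, with -0.093 without scaling. Otud7b, a deubiquitinase gene, was 1.51-fold higher, with -0.36 without scaling, and lost its call with any 1 of the 4 arrays left out (adjusted p = 0.0604 to 0.112); it kept its call in 9 of 18 other settings. Cyld had a change of 0.16 ± 0.53 (SE) that did not pass.

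Of 24 tested NF-kappaB target genes out of 26 listed, 11 were lower, 5 were higher and 8 did not pass (median change -0.65, or -0.46 with genes at background in 1 group taken at their bound). Cxcl2 and Il6 were not well above background in AP, and were lower with nominal bounds of 215-fold and 29.1-fold. These bounds hold only for the background subtraction of the scanner software. Under normexp with quantile normalization and with the 75th percentile the falls were smaller: -5.49 and -5.27 (log2) for Cxcl2, and -2.34 and -2.27 for Il6. The order of Il6 rests on a fitted value at background; Ccl2, measured well above background on all scans and chosen after its value was seen, was 57.8-fold lower (-5.85 ± 0.09, log2, SE, adjusted p = 0.000602). Bcl2l1, counted among the 11 lower, had probes that disagreed: its brightest probe changed by -2.31 and its other 3 tested probes by -2.19, 2.08 and 3.01. The 5 higher genes were Cd83, a marker of mature dendritic cells and lymphocytes (5.40-fold; 2.43 ± 0.12, log2, SE, adjusted p = 0.00118), Ccl20 (3.02-fold, well above background on 1 of 3 control scans), Plau (2.06-fold), Irf1 (1.63-fold) and Tnf (1.40-fold). Without scaling Cd83 was still called higher (1.48), Ccl20 and Plau stood at 0.64 and 0.083 without a call, Irf1 stood at -0.25 without a call and Tnf was called lower (-0.47, adjusted p = 0.0401). Leaving out arrays ended the call of Ccl20 (control array 2, adjusted p = 0.0573), Irf1 (control array 1 or either AP array, 0.0515 to 0.0558) and Tnf (any of the 4 arrays, 0.0665 to 0.0990). Tnf kept its call in 7 of 18 other settings, with an adjusted p of 0.0821 under quantile normalization and 0.0822 with the deposited normalized values. Icam1, a classical target in inflamed endothelium, had a change of -0.39 ± 0.14 (SE, adjusted p = 0.0922). Over all 64 tested pathway genes outside the members, 24 were lower and 15 were higher. Of all 8732 genes tested, 2784 were lower and 2106 were higher, which is the background for the counts of each list above too. Over all probes 28.2% were called lower and 26.9% higher. Without scaling the pathway counts were 44 and 1, against 59.0% lower, 5.81% higher and 64.8% either way over all probes.

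**Figure D3:**
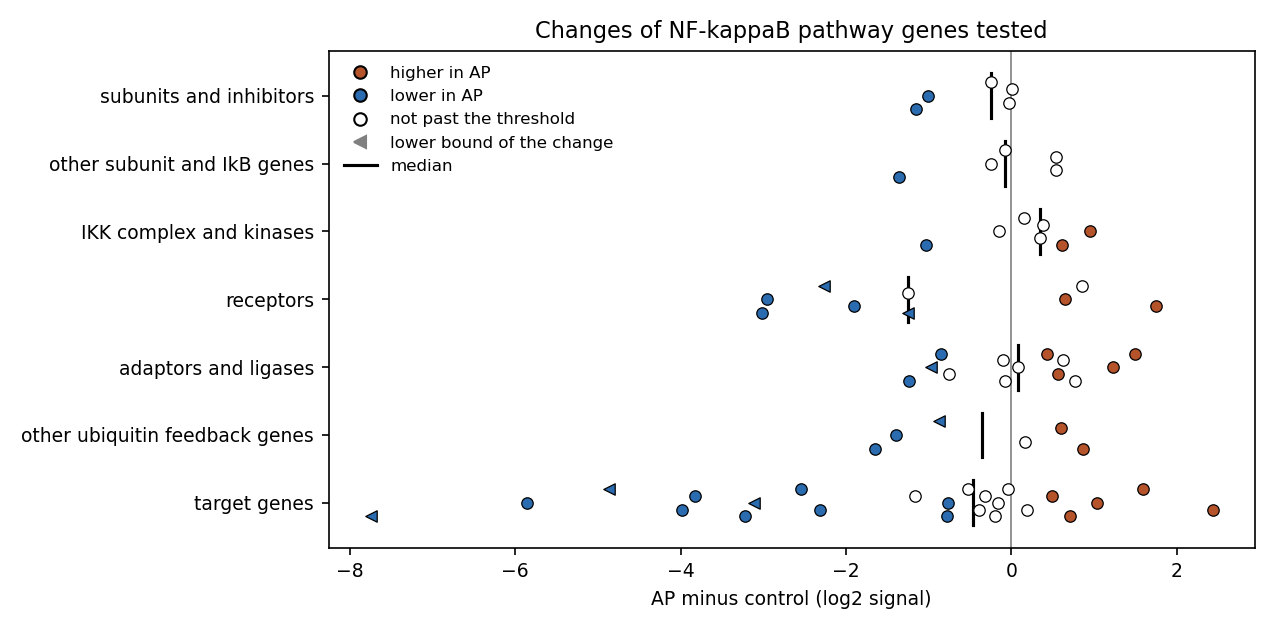
AP minus control in log2 signal for each tested gene, in 7 groups of the pathway; filled points passed the threshold, triangles are bounds for genes not well above background in AP, and vertical lines are medians. Receptors and target genes spread furthest to the left, down to the nominal bound of Cxcl2 at 215-fold lower, which holds only for the scanner's background subtraction.

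By the root mean square difference between gene-centred log2 profiles over the 4 arrays, Ext2 (0.0099), Hmgn5b (0.018) and Ppp2r1b (0.021) were most like Nfkbia among 8681 other genes. Bcl3 ranked 208 by this measure, with a difference of 0.094. With 4 arrays in 2 groups such a ranking mainly sorts genes by the size of their change.

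Markers of several cell types moved between the same arrays, and their part in the changes of Nfkbia, Bcl3 and the pathway genes was not tested. The summed scaled signal of 12 of 12 T cell markers was 49.5 and 50.7 on AP arrays against 4.88 and 4.11 on control arrays, and that of 8 of 10 B cell markers was 9.28 and 9.55 against 1.05 and 0.936; Cd3d and Cd22 were brightest in AP, and Cd8a and Pax5 in control. The sum of 8 of 10 adipocyte markers was 17.1 on each AP array against 459 and 463 on control arrays, and that of 7 of 8 erythroid markers was 29.3 and 30.05 against 644 and 743, with Fabp4 and Hbb brightest in each group. Hbb made up most of the erythroid sum in both groups, and 6 of 6 tested erythroid markers were lower. The sum of 6 of 10 neutrophil markers was 0.426 and 1.56 in AP against 16.4 and 17.9 in control. S100a8, the brightest in control, made up nearly all of the control sum and was not well above background in AP. There 5 of the 6 summed markers were not well above background, Mmp8 and Ltf in control either. Cxcr2 was brightest in AP but differed widely between the AP arrays (log2 SD 2.88). The sum of 9 of 10 macrophage markers was 46.4 and 47.2 in AP against 44.9 and 45.6 in control, with Csf1r brightest in AP and C1qa in control; Cd68 was left out because its spot had no usable value on 1 AP array. The measured duct (7 of 9), endothelial (4 of 7) and fibroblast (5 of 8) markers summed to 9.32 to 9.54, 1.54 to 1.57 and 18.9 to 22.0 in AP against 21.9 to 22.3, 2.48 to 2.74 and 77.0 to 78.5 in control, with Epcam, Tek and Col3a1 brightest in AP and Krt8, Tek and Col3a1 in control; Dcn and Sparc were left out of the fibroblast sum because each lacked a usable value on 1 control array. Of the acinar markers, which define the labelled tissue, 16 of 17 had a probe and summed to 93.0 and 82.0 in AP against 70.3 and 69.9 in control, with Cela2a brightest in AP and Cela3b in control. The acinar transcription factors Ptf1a and Rbpjl were not well above background in either group.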

How the data were processed

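The members, gene lists and tests were chosen with earlier results of these data known. Per the file headers, the authors read each array with Agilent Feature Extraction 11.0.1.1 (1-colour protocol, design annotated on rn4); in these deposited files a spot's intensity stands after background subtraction and spatial detrending, without scaling between arrays. A further table of normalized values deposited by the authors, in log2, has a median of 4.27 in every column; it correlated with the scanner log2 values of the same scan (r of at least 0.998 across probes), and its tool and centring are not given in the sources used here.

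Control spots and spots with an outlier mark were left out, the log2 intensities of a probe's spots were averaged (each member has 1 spot), and each scan was scaled to the 75th percentile of its non-control probes. The dim-probe filter required a probe to be well above background on 3 or more of 6 scans, which left 13225 probes, of which 13220 could be tested. No spot was saturated. The change (AP minus control) was tested two-sided with limma 3.58.1 in R 4.3.3, on 2 residual degrees of freedom and with Benjamini and Hochberg adjustment over all probes tested. Pooling with the prior variance brought the total degrees of freedom of the members to 3.71, so their SE is not the gene's own spread alone. The brightest probe stood for a gene. All arrays were on 1 slide, with each array in a slot of its own, so the slot and the group cannot be told apart. Scans 1 and 2 of each group were scanned in 1 session and scan 3 in another. The number of arrays limits the precision.

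Named are all measured members, Rela, in each pathway list up to the 2 largest rises and falls past the threshold and every gene of a count of 5 or fewer, the 3 genes most like Nfkbia, and the brightest marker of each list; Chuk, Ikbkb, Cyld, Icam1, Ccl2 and Bcl2l1 were added with their values known. The scanner files used here hold no mean spot signal, so the normexp settings (offset 50) used the median spot signal. The fit was also run on simulated data with few probes changed and no scaling step, so that run does not bear on the choice of scaling. Tables were made with Python 3.11.15, numpy 2.4.6, pandas 2.3.3, scipy 1.17.1 and matplotlib 3.10.9.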

Additional observations from a re-analysis of the deposited data

How the results depend on the processing

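Nfkbia and Bcl3 were called lower in all 18 other settings; the number of members called lower was 2 or 3 in these, except without scaling, where it was 5, and 0 members were called higher in any. Without scaling 7796 probes were lower and 768 higher, and of the other pathway genes 44 were lower and 1 was higher; Nfkb2 (-0.95), Tnf (-0.47), Irak1 (-0.52) and Chuk (-0.61) were then called lower, and Ikbke (-0.34), Irf1 (-0.25), Map3k14 (-0.012), Otud7b (-0.36), Sharpin (-0.39), Tlr3 (-0.31) and Usp18 (-0.093) were below 0 without a call. This follows from the dimmer AP scans, since the shift applies to every probe. Under normexp with the 75th percentile, 1723 probes were lower and 936 higher, 1 other pathway gene was higher, Card9 (0.048) and Optn (0.16) turned sign without a call, and 21 of the 32 named pathway genes past the threshold lost their call, Tlr2 (-0.00013) and Tlr4 (-0.45) among them; the cause was not tested. With no filter on dim probes 6800 probes were higher. With 1 array left out, 2520 to 3100 probes were lower, 2121 to 2740 higher, and 5 to 10 other pathway genes were higher. Of these 32 genes, 11 kept their call in every setting that tested them: Bcl2l1 (brightest probe), Ccl2, Cd14, Cd83, Cxcl2, Il6, Ltbr, Myd88, Tax1bp1, Tnfrsf1a and Zc3h12a. The replicate numbers are not known to pair animals: deviations of same-numbered arrays correlated with r = -0.21. With the replicate block 2936 probes were lower and 2580 higher, and 2 members were lower (Nfkbia -1.01, Bcl3 -1.15). With crossed numbers, chosen after seeing the data, 3615 were lower and 3677 higher. The settings with the 6 scans as separate replicates and with scan session as a block count both scans of an array. Their p values therefore overstate the replication. No member had a second tested probe. In the first scan session alone Nfkbia changed by -1.03 and Bcl3 by -1.15. Nfkb2 and Nfkbie lie near the background of the arrays, which limits what a change in them can show.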
